A study of Homo sapiens and Mus musculus with 6 samples.

Results

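Baits whose names held only small nuclear RNA (snRNA), small nucleolar RNA (snoRNA), small Cajal body RNA (scaRNA), 7SK or Y RNA symbols were taken from both Promoter Capture Hi-C (CHi-C) lists, by the start of the symbol (SNORA, SNORD, SCARNA, RNU, U6, 7SK or Y_RNA). The rule gave 925 of the 15389 baits with a call in GM12878 cells, with 4340 of 92929 calls, and 1009 of 16265 baits in mouse embryonic stem cells (mESCs), with 5380 of 101841 calls. GM12878 is a human B-lymphoblastoid cell line, labelled B-Lymphocyte and measured in 3 biological replicates, and the mESCs were of the strain 129S4/SvJae, with 2 CHi-C replicates and 1 Hi-C library. No treatment, deletion or transgene distinguished any group, and both cell types were grown as cultured lines. In CHi-C, HindIII fragments with promoters (the baits) are pulled out of a Hi-C library, and a call joins a bait to a fragment (the other end) at a CHiCAGO score of at least 5. The score compares the read count with the background for that pair, and the replicates of a cell type were merged into 1 set of calls, so no spread between replicates exists. Intervals given here are 95% intervals for counting error only, calls of 1 bait are not independent, and baits with no call are not in the lists.

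The snRNAs are the RNA cores of the spliceosome, in which U6 forms the catalytic centre together with U2, and U6 is made by RNA polymerase III from promoters upstream of the gene. Box C/D snoRNAs guide ribose methylation and box H/ACA snoRNAs guide pseudouridylation, mostly of ribosomal RNA, and in vertebrates most are processed from introns of host genes. scaRNAs guide the same modifications on snRNAs, the U7 snRNA acts in histone pre-mRNA 3′ end processing, and mammalian genomes hold many dispersed copies of these small genes, most of them pseudogenes.

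The names set a limit on what these baits represent. Of the 690 human baits with RNU symbols alone, 684 (99.1%) had only symbols with a pseudogene ending, and 949 of the 1009 mouse baits carried numbered copy names such as U6.660-201. The rule took human U1, U2, U4, U5 and U7 genes, named RNU1 and so on, but not mouse genes named U1, U2 or U3, so the classes of the lists are not matched between the species. A further 240 human and 217 mouse baits had such names (U1 to U5, U7, U8 or snoU) and were counted among the other baits. Among the baits taken by the rule none was named for 7SK, and a single human bait was named for Y_RNA alone. 7SK genes under names that begin otherwise were not searched.

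SNORA75, a box H/ACA snoRNA in the gene of nucleolin, a major nucleolar protein, in both species, is shown because only SNORD111 had more calls among the symbols found in both lists. It lies at chr2:232320511-232320647 (hg19, minus strand) and its mouse counterpart at chr1:88247744-88247876 (mm9, minus strand), and capitals mark mouse bases that differ from the human sequence in the alignment.
SNORA75: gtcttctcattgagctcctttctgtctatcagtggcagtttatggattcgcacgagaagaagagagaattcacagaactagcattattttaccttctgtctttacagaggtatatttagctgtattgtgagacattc
Snora75-201: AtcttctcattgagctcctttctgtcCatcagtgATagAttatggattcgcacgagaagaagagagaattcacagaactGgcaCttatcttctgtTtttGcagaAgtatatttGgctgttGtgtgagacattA
The human gene has 137 bases and the mouse gene 133, with 86.3% identity. The human bait also carried SNORD20, a box C/D snoRNA of the same host.

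The 2 lists held many diverged U6 copies. Between pairs of the U6 copies on these baits, sequence identity had a median of 72.5% among 464 copies in GM12878 and 70.0% among 435 copies in mESCs.

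Promoter windows from 250 bases before to 50 bases after the gene start were searched on both strands, with overlaps allowed, for the octamer ATTTGCAT of the distal element and for TATAAA or TATATA. The octamer was in 26 of 917 windows of human baits (2.84%) against 2.24% of windows of all annotated genes, and in 22 of 1009 mouse windows (2.18%) against 2.27%. Of the 8 human RNU genes with no pseudogene ending, 5 held it (62.5%). TATAAA or TATATA was in 369 human windows (40.2%) against 21.1% of all genes and in 316 mouse windows (31.3%) against 20.5%. In mouse C/D snoRNA windows the share was 12 of 76 (15.8%). A match is a description of letters, not a site.

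The calls of snRNA and snoRNA baits spanned about the same distances as those of other baits in GM12878 and shorter distances in mESCs. The median cis-chromosomal distance, between fragment midpoints, was 180.0 kb (172.8 to 187.1) in GM12878 against 173.4 kb (172.1 to 174.7) for other baits, so the intervals overlapped. In mESCs it was 112.5 kb (107.2 to 117.8) against 140.5 kb (139.2 to 141.7). In mESCs the share of calls was higher than for other baits in the cis-chromosomal classes under 100 kb and lower in those beyond. From 100 to 500 kb it was 47.5% against 51.6%, and from 500 kb to 1 Mb it was 4.26% against 5.70%. Calls under 20 kb made up 951 mESC calls (17.7%) against 11.2% for other baits, and 384 GM12878 calls (8.85%) against 6.59%. Calls over 1 Mb made up 60 mESC calls (1.12%), where 3.37% of all listed calls were this long, and the difference from other baits was -2.38 percentage points (-2.66 to -2.05). In GM12878, 70 calls (1.61%) were over 1 Mb, where 1.64% of all listed calls were, and the difference from other baits was -0.0250 points (-0.370 to 0.403).

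**Figure D1:**
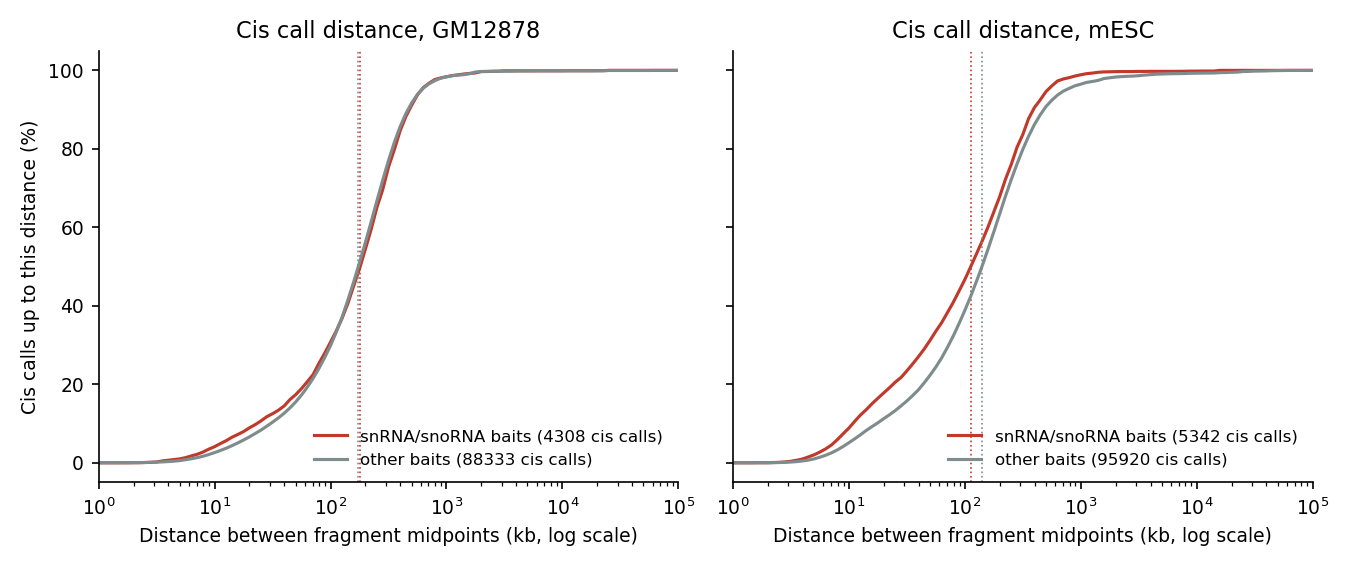
Cumulative share of cis-chromosomal calls (%) by distance between fragment midpoints (kb, log scale) for snRNA and snoRNA baits (red) and other baits (grey), with dotted lines at the medians. The curves nearly coincide in GM12878 (medians 180.0 and 173.4 kb), and the red curve lies to the left in mESC (112.5 and 140.5 kb).

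Other ends that were themselves baits were more common than among other baits in GM12878 and less common in mESCs. They were reached by 1397 GM12878 calls (32.2%, 30.8 to 33.6), where 29.4% of all listed calls reached a bait, and the difference from other baits was 2.89 points (1.48 to 4.33). In mESCs they were reached by 1754 calls (32.6%), where 36.3% of all listed calls did, and the difference was -3.95 points (-5.22 to -2.65). With only baits over 10 kb from any protein-coding start on both sides, the mESC difference turned to 2.25 points (0.0851 to 4.44). Counting each pair once, as in the browser list, also turned it, to 32.2% against 31.1%. A pair between baits can be called from either end, and 269 of 1247 such GM12878 calls (21.6%, 19.4 to 23.9) were also called from the other end, against 34.2% for other baits. In mESCs 602 of 1662 (36.2%, 33.9 to 38.6) were, against 43.5%. Among the other ends of snRNA and snoRNA baits, 1130 of 4132 different GM12878 fragments (27.3%) and 1422 of 4781 mESC fragments (29.7%) held a protein-coding start, against 19.9% and 23.1% for other baits. A fragment counts once here however many calls reached it, so these are not shares of calls. The sets also differ in size, with 47833 and 43603 fragments for other baits, and the effect of this on the shares was not tested. Calls that joined snRNA or snoRNA baits to each other numbered 70 (1.61%) in GM12878, 27 of them within a class, and 130 (2.42%) in mESCs, 51 of them within a class. Calls of other baits to these baits numbered 756 of 88589 in GM12878 and 1172 of 96461 in mESCs. The counts within a class have no matching value for other baits.

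Trans-chromosomal calls were few and came from few baits. They numbered 32 in GM12878 (0.737%, 0.523 to 1.04), where 0.31% of all listed calls were trans-chromosomal, and the difference from other baits was 0.448 points (0.231 to 0.752). The 32 calls came from 5 baits, and 20 came from RNU2-42P alone. Without that bait the share was 0.278%, below the 0.289% of other baits. In mESCs they numbered 38 (0.706%, 0.515 to 0.968), where 0.569% of all listed calls were, and the interval of the difference included 0 (0.145 points, -0.0520 to 0.411). Baits with a trans-chromosomal call numbered 5 (0.541%) in GM12878 and 27 (2.68%) in mESCs, against 0.256% and 1.98% of other baits, and both intervals of the difference included 0 (0.285 points, -0.0394 to 1.01, and 0.696 points, -0.166 to 1.90).

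These baits had fewer calls than other baits. The median was 2 calls (quartiles 1 and 5, highest 50) in GM12878 and 3 (1 and 6, highest 97) in mESCs, with a median of 3 for other baits in both. At least 10 calls were listed for 117 baits in GM12878 (12.6%), where 17.6% of all baits had as many, and for 138 in mESCs (13.7%), where 18.9% had. The differences from other baits were -5.29 points (-7.37 to -2.91) and -5.53 points (-7.61 to -3.19). A single call was listed for 286 (30.9%) and 301 (29.8%) baits, against 24.7% and 22.9% of other baits. The listed read count had a median of 14 against 16 for other baits in GM12878 and of 13 for both in mESCs, and the median scores were 6.43 against 6.63 and 6.61 against 6.62.

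The position of the baits differed from that of other baits. A protein-coding start lay on 6 human fragments (0.649%) and 94 mouse fragments (9.32%), against 78.2% and 89.3% of other baits. The median distance to such a start was 23.2 kb and 15.7 kb. The rule sets part of this contrast, because baits that also carry another symbol, such as that of a protein-coding gene, were not taken. They numbered 540 in GM12878 and 0 in mESCs and were counted among the other baits. The human fragments were shorter, with a median of 5.52 kb against 7.03 kb, and had a median GC content of 41.0% against 47.9%. The mouse fragments had a median length of 5.69 kb against 5.74 kb and a median GC content of 43.8% against 47.9%. Their part in the number of calls was not tested. Where the start lay off the fragment, baits over 100 kb from it had the fewest calls. In GM12878 the median was 4 calls within 10 kb (262 baits), 2 at 10 to 100 kb (532 baits) and 1 beyond 100 kb (125 baits), with 3, 3 and 1 for other baits. In mESCs it was 4 (286 baits), 2 (481 baits) and 1 (148 baits), with 4, 3 and 1 for other baits. With a start on the fragment, the 6 human baits had a median of 3.5 calls against 3 for other baits. The 94 such mouse baits had a median of 6 against 4, and 27.7% of them had at least 10 calls against 19.7% (difference 7.93 points, -0.130 to 17.7). Among baits over 10 kb from a start, the share with at least 10 calls differed from that of other baits by -1.17 points (-3.63 to 1.62) in GM12878 and -1.66 points (-4.41 to 1.29) in mESCs. The median distance of their calls was 205.3 kb (195.6 to 212.5) against 205.5 kb (201.8 to 210.3) in GM12878 and 131.8 kb (120.1 to 142.9) against 145.2 kb (138.0 to 151.3) in mESCs.

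**Figure D2:**
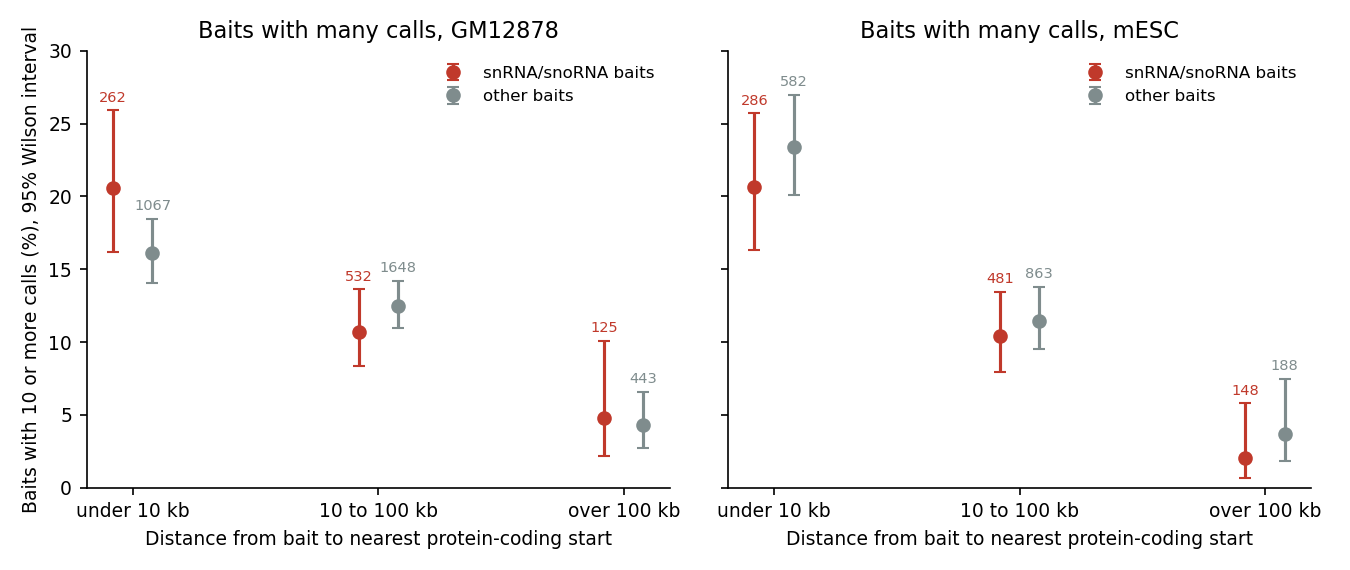
Share of baits with 10 or more calls (%, Wilson 95% intervals) by distance of the bait from the nearest protein-coding start, for snRNA and snoRNA baits (red) and other baits (grey), with the number of baits above each point. Fragments that hold a start are left out, and the red share falls from 20.6% under 10 kb to 4.80% over 100 kb in GM12878 and from 20.6% to 2.03% in mESC.

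The U6 snRNA was the largest human class, with 468 baits and 2155 calls at a median of 183 kb (174 to 191), of which 35.5% reached a bait. The mouse U6 class was of similar size, with 435 baits and 2144 calls at a median of 109 kb (102 to 120), of which 33.5% reached a bait. Among the other human spliceosomal RNAs, U1, which recognises the 5′ splice site, had 38 baits and a median of 263 kb (171 to 322). U2, which pairs with the branch point, had 30 baits and 143 kb. U4, which holds U6 before activation, had 31 baits and 187 kb, with 45.4% of 97 calls to a bait. U5 had 12 baits and 101 kb (80.6 to 125). Of the minor spliceosome, U6atac had 23 baits and 259 kb (195 to 303), and U4atac had 8 baits and 90.7 kb (50.1 to 138). Their mouse U6atac counterpart had 13 baits and 146 kb. U11 had 2 baits with 31 calls and U12 1 bait with 2 calls, and U7 had 78 baits and 165 kb. The intervals of U5 and U4atac lay below the median of other baits (173.4 kb), and those of U6atac and U6 lay above it. The U6 interval began at 173.9 kb, however, and overlapped that of other baits (172.1 to 174.7 kb). The 6 human baits with an RNU symbol that lacks a pseudogene ending, of which RNU5E-1 shares its bait with RNU5E-4P, had 31 calls at a median of 74.3 kb.

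Box C/D snoRNA baits had more calls in the mouse list than in the human list. In mESCs 76 baits had 972 calls, a median of 7 and a mean of 12.8 per bait, and 32 of them had at least 10 calls, with a median distance of 98.3 kb (87.9 to 108). In GM12878 83 baits had 378 calls, a median of 3 and a mean of 4.55, and 7 had at least 10 calls, with a median distance of 171 kb. Same-strand protein-coding host genes held 50 of the 76 mouse genes (65.8%) and 27 of the 83 human genes (32.5%). The capture designs, naming, depth and species differ between the lists and cannot be told apart here. Box H/ACA snoRNAs had 123 human baits at a median of 192 kb and 456 mouse baits at 125 kb (114 to 138). Of the mouse H/ACA baits, 230 were SNORA17 copies, with a median pairwise identity of 71.9% and a median length of 130 bases. Their 721 calls spanned a median of 188 kb (170 to 207), against 92.1 kb (83.0 to 105) for the 1247 calls of the other 226 H/ACA baits. The scaRNAs had 18 human baits at 173 kb and 29 mouse baits at 105 kb, with 42.1% of mouse calls to a bait.

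**Figure D3:**
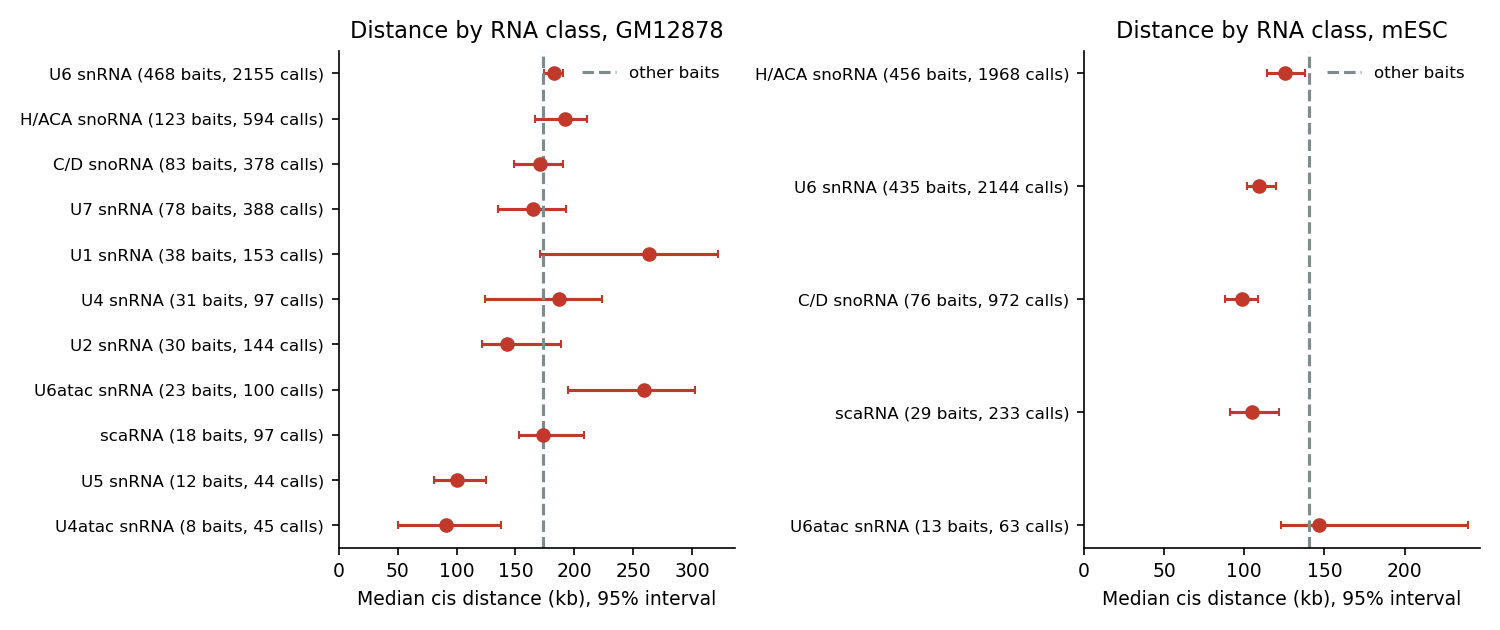
Median cis-chromosomal distance (kb) with its 95% interval for each RNA class with at least 5 baits, with baits and calls in brackets, and a dashed line at the median of other baits. The 4 largest mouse classes lie below the line and SNORA17 copies are within the H/ACA class, while most human intervals cross the line.

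Host genes were examined because most snoRNAs are intronic. A protein-coding gene on the same strand held 275 human (29.7%) and 285 mouse small RNA genes (28.2%), and one on the opposite strand held 254 (27.5%) and 232 (23.0%). A long noncoding or processed-transcript gene held 99 (10.7%) and 28 (2.78%), and 289 (31.2%) and 464 (46.0%) lay outside genes of these types. Other gene types, such as pseudogenes, were not searched. A call from the bait to a start of its own same-strand host was listed for 75 of 275 human baits (27.3%, 22.3 to 32.8), at a median of 42.0 kb, and for 66 of 285 mouse baits (23.2%, 18.6 to 28.4), at a median of 15.8 kb. No matching share was computed for opposite-strand hosts or for other baits and starts at like distances, so these shares do not show a preference for the host. The highest human scores of this kind were for RNU4-51P and REL, an NF-κB subunit of B cells (45 reads, score 34.1, 30.8 kb), RNU1-19P and BMPR1A, a BMP receptor (score 24.89), and RNU6-814P and IRAK2, a Toll-like receptor signalling kinase (score 21.94). In mESCs they were for SNORD121A.1-201 and Ubap2 (score 29.08), Snora30-201 and Srcap, a chromatin remodeller (99 reads, score 28.58, 35.3 kb), and SNORD83.1-201 and Ddx39b, an RNA helicase (score 25.44).

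The human baits with the most calls lay near genes of several kinds. RNU6-1007P (chr2:88707527-88715360, hg19) had 50 calls at a median of 144 kb, 5 of them to baits, 36.9 kb from the nearest start, that of the forkhead factor gene FOXI3. Its calls reached the starts of 6 genes, among them EIF2AK3, an endoplasmic reticulum stress kinase, and FABP1. The bait named for SNORA76 and SNORD104 (chr17:62222582-62224253), in the host gene SNHG25, had 48 calls, of which that to the adhesion molecule gene ICAM2 had the highest score (47 reads, 22.48). CD79B, a subunit of the B cell receptor, was also among the 7 genes with a start reached. RNU6-1148P (chr5:137405056-137413889) had 45 calls and lay 5.82 kb from a start of the Wnt ligand gene WNT8A, and the fragment of NME5 and RNU6-888P was reached with 83 reads and a score of 16.25.

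RNU2-38P (chr1:144941765-144945045), in PDE4DIP on the opposite strand, had 44 calls. It also had the longest human calls, at 24.7 Mb to PHGDH, an enzyme of serine synthesis, with 4 reads, at 24.5 Mb to ADAM30 with 5 reads and at 24.4 Mb to the receptor gene NOTCH2 with 4 reads, and all 3 other ends lay within 500 kb of an assembly gap of at least 10 kb. Its highest scores, 34.41 and 32.06, were for fragments of PDE4DIP. RNU6-1309P (chr1:150782637-150789150), in ARNT, had 35 calls, which reached the starts of CTSK and MCL1, an anti-apoptotic BCL2 relative. SNORD112 (chr19:42644877-42649771), in POU2F2, which encodes the B cell factor Oct-2, had 34 calls. The next longest human call joined RNU7-101P, in KANSL1, to LRRC37A3 at 18.7 Mb (8 reads, score 20.1), also within 500 kb of such a gap, and the fifth joined RNU6-519P to NSD3, a histone methyltransferase gene, at 10.7 Mb (4 reads, score 5.47). SNORA63 at chr1:178720591-178726656, in RALGPS2 on the opposite strand, had a score of 32.3 for the fragment of C1orf220.

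In the other human classes the baits with the most calls were SNORA59A in VPS13D (33), RNU7-14P (32), RNU11-3P in PCGF6 (30), SCARNA16 (29), RNU1-38P (26), RNU6ATAC33P (17), RNU4ATAC14P (15), RNU4-19P (14) and RNU5D-1 (10). RNU12-2P and Y_RNA had 2 calls each. A further 9 baits carried symbols of 2 classes, among them those of SNORD104 and of SNORA75. RNU11-3P had 29 of its 30 calls on the same side, over a median of 366 kb, and RNU7-14P had 31 of 32. RNU5D-1 reached the starts of 4 genes, among them the cell cycle kinase PLK3.

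Of the 6 mouse baits with the most calls, 5 lay in 3 host genes on the same strand. SNORD121A.1-201 (chr4:41149738-41158046, mm9) and the adjacent SNORD121A.2-201 (chr4:41158047-41159761), both in Ubap2, had 97 and 75 calls at medians of 161 kb and 124 kb. Both reached fragments of Nfx1, a transcription factor gene, with scores of 35.38 and 31.1, and the starts of Aqp7, Bag1, Chmp5 and Nol6. U6.373-201 (chr5:111100297-111108877) had 69 calls and SNORA49.1-201 (chr5:111119584-111122030) had 49, both in the chromatin remodeller gene Ep400. Fragments of Pole, the catalytic subunit of DNA polymerase epsilon, were reached from both, with scores up to 16.4 and 16.79 at 0.374 Mb and 0.371 Mb. Baits in the same gene lie close together, so their calls are not independent. Snord111-201 (chr8:113354686-113363902), in Sf3b3, had 54 calls, with scores of 25.42 in its host and of 18.02 at the alanyl-tRNA synthetase gene Aars. The sixth, U6.634-201 (chr2:91039126-91048036), lay in Nr1h3, the LXR alpha gene, on the opposite strand, held a start of Acp2 and had 50 calls. Among the scaRNAs, SCARNA11.2-201, which held a start of the nucleolar methyltransferase gene Nop2, had 41 calls, and U6atac.21-201 had 14.

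The longest mouse calls came from U6.660-201. Its bait (chr11:87256987-87263403) lay in Tex14 on the opposite strand and had 19 calls. Of these, 10 lay within 0.317 Mb, led by the fragments of U1.113-201 (74 reads, 32.06), U1.112-201 (83 reads, 26.16) and U3.7-201 (44 reads, 16.76). The other 9 lay at 14.2 to 14.3 Mb, in chr11:101443040-101528207, and the highest was for U2.22-201, with 20 reads and a score of 87.3. U2.20-201 had 7 reads (22.78) and U2.4-201 had 6 (18.55), and the rest included the starts of Rdm1 (12.38), Tmem106a (7.72) and Arl4d (6.93). From the other end, 6 of the 9 pairs were called as well, those of U2.22-201, U2.4-201 and U2.20-201 with scores of 27.33, 21.75 and 19.57. The remaining distant fragments carried no bait name, so their pairs could not be called from that end. In the Hi-C library the 1-Mb bins of both regions formed a significant pair with 978 read pairs. U6, U1, U2 and U3 are small RNA genes of splicing or ribosomal RNA processing.

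Neighbours of that bait were examined after these values were seen. Of 7 baits with a call within 100 kb, U6.660-201 included, 6 had calls to the same distant region, 32 calls in all, of which 13 were to fragments with U2 names. The exception was Ppm1e. U1.112-201 had 15 reads and a score of 55.79 at best, and U3.10-201 had 10 reads and 42.27. The DNA repair gene Rad51c had 4 such calls with scores up to 9.11. From the distant region, 26 calls went back to these 6 baits. No alignment of at least 100 bp at 95% identity joined the fragments of any of the 60 mouse or 70 human calls over 1 Mb, which allows shares of up to 5.0% and 4.29%. At lower identity such alignments were found. Of the 9 calls of U6.660-201, 8 joined fragments with an alignment of 107 to 291 bp at 77.0% to 94.5% identity. Over all calls over 1 Mb, an alignment of at least 100 bp at any identity was found for 17 of 60 mouse calls (28.3%, 18.5 to 40.8) against 9.06% of those of other baits, and for 18 of 70 human calls (25.7%, 16.9 to 37.0) against 33.8%. Their part in these calls was not tested.

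U6.54-201 (chr5:29807448-29809877) lay 2.39 kb from a start of Mnx1, a homeobox gene of motor neurons and pancreas, and 17 of its 19 calls were over 1 Mb. The fragment of Shh, the sonic hedgehog ligand gene, was reached at 1.02 Mb with 48 reads and a score of 76.13 and called U6.54-201 back with 68.71. The fragment of the homeobox gene En2 was reached at 1.31 Mb with 22 reads and 33.18 and called back with 43.05. All other calls over 1 Mb lay at 1.01 to 1.37 Mb, except 1 at 8.41 Mb (score 5.23), and the Hi-C bin pair that held the calls to both genes had 3874 read pairs. This bait supplied 17 of the 60 mouse calls over 1 Mb and U6.660-201 a further 9.

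**Figure D4:**
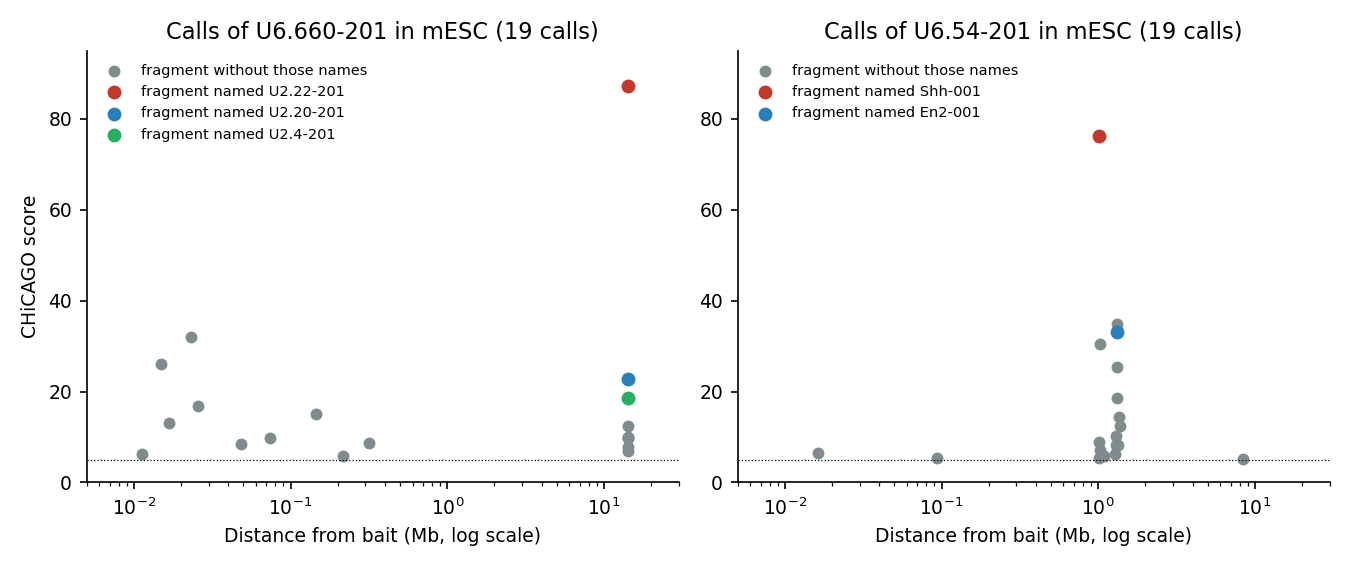
CHiCAGO score of each mESC call of U6.660-201 (left) and U6.54-201 (right) by distance from the bait (Mb, log scale), with the dotted line at the listing threshold of 5. The U2.22-201 fragment stands at 87.3 about 14.3 Mb away, and the Shh-001 and En2-001 fragments stand at 76.13 and 33.18 about 1.02 and 1.31 Mb away.

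Hi-C data of mESCs before capture were set beside the mouse calls. Capture starts from a Hi-C library, so these data are not an independent experiment. Under 1 Mb, 591 of 5282 calls (11.2%) lay in a significant 25-kb bin pair (FDR under 0.05), against 11.6% of other calls, and the interval of the difference included 0 (-0.437 points, -1.28 to 0.465). Between 1 and 10 Mb, 37 of 50 calls (74.0%, 60.4 to 84.1) lay in a significant 1-Mb bin pair, against 53.3% of other calls, and all 10 calls over 10 Mb did, against 81.6%. Many of these calls share a bin pair, as for the 9 of U6.660-201 above and for 16 calls of U6.54-201. Without U6.54-201, chosen after its values were seen, 21 of 33 calls between 1 and 10 Mb (63.6%, 46.6 to 77.8) lay in such a bin pair, and this interval included the share of other calls. Of the trans-chromosomal calls, 9 of 38 did (23.7%, 12.99 to 39.2), against 45.5% (41.3 to 49.7) of those of other baits.

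The human trans-chromosomal calls had low read counts. RNU2-42P (chr10:127572583-127584139), in DHX32, had 20 calls and all were trans-chromosomal, 12 to chromosome 21, 6 to chromosome Y and 2 to chromosome 20, with 3 to 9 reads and scores up to 36.95. The highest score was for a chromosome Y fragment. Whether the reads behind the calls to chromosome Y were placed correctly was not tested, and these calls are counted in the shares above. RNU1-51P (chr4:190627730-190631259) had 5 calls, all to chromosome 21 with 4 or 5 reads, and RNU6ATAC25P (chr16:70882756-70887714), in HYDIN on the opposite strand, had 5 of its 6 calls on chromosome 1 with 3 or 4 reads. Of the 32 other ends, 29 (90.6%) lay within 500 kb of an assembly gap of at least 10 kb, against 154 of 256 for other baits (60.2%). The fragment itself was also the trans-chromosomal other end of another bait in 24 of the 32, of which 16 were calls of RNU2-42P. A matching count for the calls of other baits was not computed. RNU6-527P had 1 such call (5 reads, 24.82). SNORA8 on chromosome X had its only call to a fragment on chromosome 11 that holds a gene of the same name, with SNORA18, SNORA40 and SNORD5 in TAF1D (5 reads, 18.46). No human pair shared an alignment of at least 100 bp at 95% identity, which allows a share of up to 9.38% of the 32. At any identity, 10 of the 32 pairs (31.2%, 17.95 to 48.6) shared an alignment of at least 100 bp, against 15.2% of those of other baits. The SNORA8 pair shared 238 bp at 89.5% identity, and 7 of the 20 pairs of RNU2-42P shared 152 to 304 bp at 77.4% to 90.1%.

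The mouse trans-chromosomal calls included far higher scores. SNORA17.560-201 (chr15:11287940-11292842) reached chr16:53569971-53571879 with 149 reads and a score of 1160.59, the highest among these baits, and a chromosome 12 fragment with 8 reads (52.04). SNORA17.412-201 (chr6:116708951-116718024) reached fragments on chromosomes 13, 16 and 14 with 31, 22 and 16 reads (252.25, 172.37 and 118.04). None of these 5 pairs shared an alignment of that length or lay in a significant Hi-C bin pair. SNORA42.17-201 reached a chromosome 12 fragment with 21 reads (162.25), and this pair shared 843 bp at 95.6% identity. All 4 trans-chromosomal calls of Snord4a-201, in the ribosomal protein gene Rpl23a, shared 175 to 179 bp, and U6.142-201 and U6.363-201 called each other (12 reads, 60.46 and 62.75) and shared 116 bp. Such an alignment was found for 7 of 38 calls (18.4%, 9.22 to 33.4), against 26 of 541 for other baits (4.81%, 3.30 to 6.95). SNORA17 copies had 14 of the 38 calls.

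The 9 calls found in Hi-C bin pairs came from 6 baits. Snora28-201, in the translation factor gene Eif5, reached 2 chromosome 8 fragments (13 and 6 reads, 81.34 and 25.15) in a bin pair with 72 Hi-C read pairs. U6.272-201 had 2 such calls (bin pair of 139), SNORA57.2-201 had 2 (57), and SNORA24.2-201, Snora20-201 and U6.279-201 had 1 each (50, 23 and 36). SNORA17.274-201 had 2 trans-chromosomal calls, neither in a significant bin pair.

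**Figure D5:**
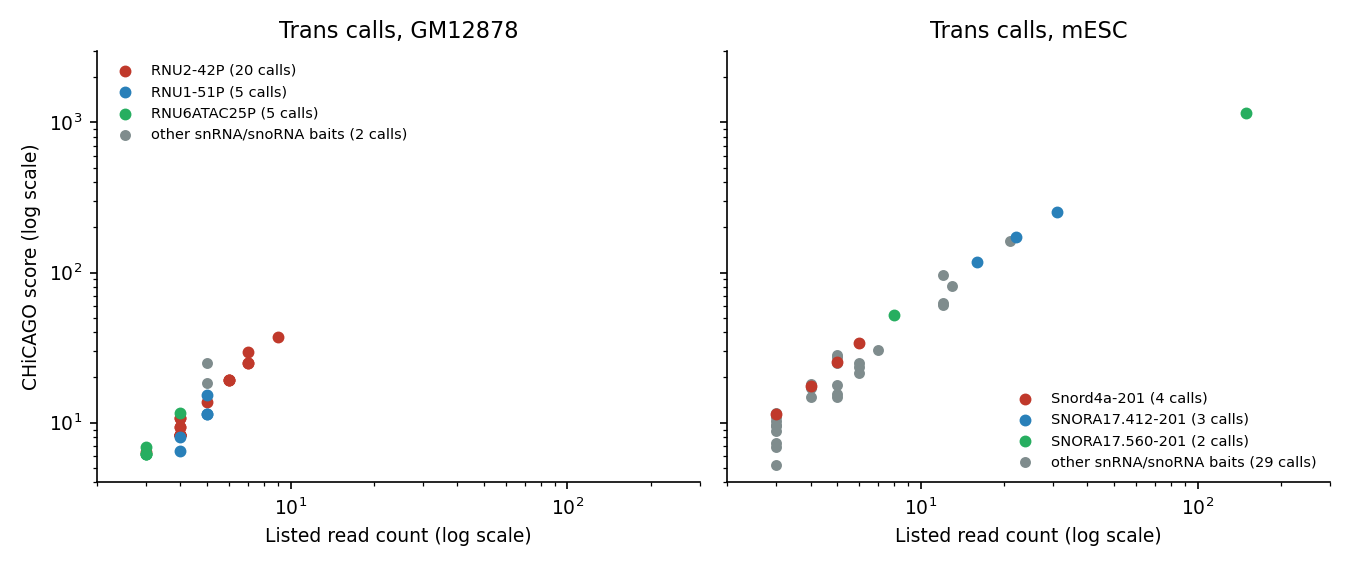
CHiCAGO score against listed read count (both log scale) for each trans-chromosomal call of the snRNA and snoRNA baits, coloured by bait, with overlapping points where calls share values. The 32 GM12878 calls have 3 to 9 reads, and the mESC calls reach 149 reads and a score of 1160.59 for SNORA17.560-201.

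Names found in both lists numbered 22, and 18 stood on a single bait in each. Of these 18, 13 had more calls in mESCs and 5 in GM12878, and the medians were 7 and 3 calls. Depth, build and capture design differ between the lists and cannot be told apart from species or cell type. A host of the same symbol was annotated in 9 of the 14 with a host in both, without a search for synonyms. SNORD111 had 24 calls in GM12878 and 54 in mESCs, in SF3B3 in both. SNORA75, in the nucleolin gene NCL in both, had 33 and 36. SNORD91A, in the ribosome biogenesis gene TSR1 in both, had 8 and 24. SNORD104 had 48 and 11. SNORD22 and SNORA30 had a single human call each, and 33 and 28 mouse calls. The human SNORD22 and SNORA30 baits lay in GPC6 and FOCAD and the mouse baits in Snhg1 and Srcap, so they were not in the same host gene. SNORA68, SNORD67 and SNORA43 stood on several human baits, with 10, 11 and 12 calls in all, and had 11, 10 and 8 mouse calls.

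Genes of snRNA and snoRNA function were checked for calls that joined them to these baits. Of 83 genes for snoRNP, Sm and LSm, snRNP, transcription, Integrator, 7SK and Y RNA partner proteins and snoRNA hosts, 66 had a bait with a call in GM12878 and 8 were linked with an snRNA or snoRNA bait in either direction. In mESCs 45 had a bait with a call and 9 were linked. Over all other baits, 1505 of 14464 (10.4%) and 1829 of 15256 (11.99%) were so linked. These are shares of baits with a call, whereas the 83 are genes and some had no such bait. The values are not matched, a difference was not tested, and the links below are given as a list only. In GM12878 the snoRNP methyltransferase gene FBL was reached by RNU6-945P (14.74), and the snoRNP assembly factor gene SHQ1 by RNU6-557P and RNU7-19P (up to 9.13). NHP2L1 and NUFIP1 called RNU6ATAC22P and RNU6-69P, the Integrator genes INTS3 and INTS8 were reached by U6 copies, and SSB, which encodes the La protein, was reached by SNORA51 (5.37). TAF1D, a snoRNA host, was linked in both directions. The bait of SNORA1, SNORA25, SNORA32 and SNORD6, which reached it at 20.5 kb and 53.0 kb, lies in TAF1D itself. The other GM12878 links had median distances of 40.8 to 466 kb. In mESCs the links with the highest scores were those of the U1 protein gene SNRNP70 with Snord35a-201 and SNORA67.8-201 (up to 23.16), of INTS5 with SNORA57.2-201 and Snord22-201 (22.33) and of LSM2 with 3 snoRNA baits (16.32). The splicing factor gene PRPF8 was linked with Snord91a-201 and SNORD91.1-201 (up to 11.06). EIF4A2, which like TAF1D was listed as a snoRNA host, was linked with the nearby Snora81-201 and SNORA63.3-201 (up to 12.06). FBL, NHP2, NOLC1 and SNAPC3 had scores up to 8.77 and median distances of 37.9 to 634 kb. Median distances were short for SNRNP70 (7.10 kb) and EIF4A2 (7.51 kb), and were 87.9 kb for INTS5, 265 kb for LSM2 and 580 kb for PRPF8.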

How the data were processed

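Promoter CHi-C calls of GM12878 (3 replicates) and mESC (2) and Hi-C calls of mESC (1 library) were used. Per the labels and the methods, the authors mapped reads with HiCUP (Bowtie 1.1.0) to hg19 and mm9 and called CHi-C pairs with CHiCAGO on all replicates together. The deposited score is the CHiCAGO score, and the read number that the authors listed with a call is a count weighted over replicates and rounded, not a raw count. For Hi-C, the deposited count is the read pairs joining 2 bins, and the deposited FDR is a Benjamini-Hochberg adjusted p-value from HOMER 4.7. A further 10 value columns of the Hi-C lists were not used.

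Baits were chosen by symbol, and all other baits of the same list served for comparison. The members, lists and several tests were chosen with earlier results of these data known. Distances were taken between midpoints. A fragment was counted as baited if it was the bait of a call or carried a bait name. Shares have Wilson, differences Newcombe and medians exact order-statistic 95% intervals (scipy 1.17.1, statsmodels 0.14.6). A count of 0 was given the limit of 3 counts. All listed fragments (100%) matched a HindIII digest of the same build. Genes and starts came from the annotation, sequences from the genome (pysam 0.24.0), identities between copies from edlib 1.3.9.post1 and fragment alignments from blastn 2.17.0. Some sequences and a host gene are not reported here. The functions were tested on simulated data. Baits were named if they were in the 6 with the most calls or the most trans-chromosomal calls, had one of the 5 highest scores or 5 longest cis-chromosomal calls, had the most calls of their class, or were among 10 symbols in both lists. U6.54-201, the neighbours of U6.660-201, baits in Hi-C bin pairs and those with calls to their host or to pathway genes were named after their values were seen. The precision rests on the number of calls, since raw depth per replicate was not used here.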

Additional observations from a re-analysis of the deposited data

How the results depend on the processing

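Of 71 alternatives, 36 left the value within its interval (for calls per bait, within 1.5 times), 30 moved it past that, and 5 turned a difference from other baits whose interval excluded 0. In all, the difference changed sign in 10. The other 5 were differences whose intervals overlapped or included 0, the GM12878 distance in 4 alternatives and, without SNORA17 baits, the mESC trans-chromosomal share, 0.515% (0.561). Of the alternatives, 56 were planned and 15 were added after seeing the data. The cause of a change was not tested unless stated. Values are for snRNA and snoRNA baits, with other baits in brackets.

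With a score of at least 10, the median distance was 144.3 kb (148.4) in GM12878 and 68.4 kb (112.0) in mESC, the trans-chromosomal share 2.64% (1.19) and 3.44% (2.05), the baited share 51.6% (44.4) and 42.3% (48.0), the median calls per bait 1.0 in both, and the Hi-C share 25.4% (28.7). With a read count of at least 10, the median distance was 140.5 kb (147.4) and 62.8 kb (91.4), the baited share 28.6% (26.9) and 31.0% (35.4), and the trans-chromosomal share 0.244% (0.0950) in mESC. It turned to 0.0% (0.0312) in GM12878, where 0 of 3340 calls allows up to 0.0898%. With each bait counted once, the median distance was 192.0 kb (182.3) and 124.6 kb (144.2), the trans-chromosomal share 0.441% (0.120) and 1.35% (0.912), and the baited share 47.1% (39.6) and 37.3% (41.9). With baits that carry at least 1 matching symbol, GM12878 gave 163.6 kb (174.6), 1.29% (0.217) and 34.0% (29.0). Between nearest edges, the mESC distance was 106.0 kb (134.1). Counting only fragments that are the bait of a listed call gave baited shares of 28.7% (27.3) and 30.9% (35.2). The browser list, with each pair once and pairs called from both ends merged, turned the mESC baited share to 32.2% (31.1). At an FDR under 0.01 the Hi-C share was 8.73% (9.61).

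Of the added alternatives, baits with no protein-coding start within 10 kb gave 205.3 kb (205.5) and 131.8 kb (145.2), turned the GM12878 trans-chromosomal share to 0.445% (1.08) and turned the mESC baited share to 27.1% (24.9). Without RNU2-42P the GM12878 trans-chromosomal share turned to 0.278% (0.289), and without SNORA17 baits the mESC distance was 103.5 kb (140.5).

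No paired analysis was possible because the calls were made on all replicates of a cell type together. For the same reason, leaving out each replicate was not run. Calls with few reads limit the trans-chromosomal and long-range values.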
